A study of Homo sapiens with 4 samples.

Results

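The loci described here are sequences around DRACH adenosines that were unmodified in the human embryonic kidney line HEK293T and that carry A at −2 and G at −1 of the selected adenosine, which makes the motif AGACH (in DRACH, R is a purine, D any base but C and H any base but G). They were chosen by the class that the deposited table gives and by the bases at positions 49 to 53 of the 141-nt sequence, with the selected adenosine at position 51. The rule itself uses class and sequence, and it was set with earlier results of these data known. The rule gave 361 loci among 3949 sequences of the series, or 24.1% of the 1500 cell-unmodified loci. Each locus was synthesised in 3 copies told apart by a tag, which gave 1083 of 11999 oligonucleotides. The motif was AGACC in 168 loci, AGACU in 89 and AGACA in the others.

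The RNA was made by in vitro transcription from a designed pool and so came without the modifications of a cell. In the methylated group (2 libraries) it was incubated with a recombinant METTL3–METTL14 complex, and in the unmethylated group (2 libraries) the same pool was left without the enzyme. Both groups then went through miCLIP2 with an antibody against N6-methyladenosine (m6A), in which reverse transcription stops at the crosslinked antibody and each stop is counted at its nucleotide. Only the METTL3–METTL14 complex was supplied, without the partner proteins that the writer has in cells, and the cell data behind the word unmodified were not analysed here. Beyond the label that experiments were done in duplicate, nothing says that replicates were separate reactions, so p-values measure the spread between these libraries, which may be technical.

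METTL3 is the catalytic subunit of the nuclear m6A writer and METTL14 the subunit that helps to hold the RNA. The complex acts on adenosines followed by C within the DRACH consensus, and GGAC is the form for which it is best known. AGAC fits the consensus but is usually regarded as a weaker substrate. A locus with this motif that is unmodified in cells therefore combines a weaker motif with absence of the mark in the transcript.

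Library totals were 13110615 and 13265092 counts in the methylated libraries and 10483825 and 12028474 in the unmethylated ones. The 361 loci took 8.80% and 8.80% of these counts in the methylated libraries and 9.25% and 9.30% in the unmethylated ones. The median locus held 693 and 743 counts over its 141 positions in the methylated libraries and 668 and 647 in the unmethylated ones. Coordinates fell in exactly 1 gene for 322 loci, in several genes for 30 and in none for 9, and gene names below come from this overlap, irrespective of strand.

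The sequences that carry the results are given first, as the 29 nt from position 37 to 65, 5′ to 3′, with T for U as in the deposited table and the selected motif in capitals. Loci are named by the gene where their coordinates overlap exactly 1, and otherwise by position. The loci of TRIM56, SPTY2D1, SLX9, ITPKC and RRP1B and the one at position 48576819 of chromosome 17 rose with no other called rise within 10 nt, except for 1 such site in TRIM56. In RRP1B only 2 sites within 10 nt could be tested. Over its whole sequence 3 of 27 tested sites were higher, the selected adenosine among them. The locus at position 98080942 of chromosome 9 and that of GSTZ1 rose beside a GGAC motif, ggaca ending directly before the selected motif in the first and ggacg shortly before it in the second. The locus of NAB2 fell, and those of CEP170B and GNA13 were among the brightest without a call.
TRIM56: ccgagtgccgcgAGACAgtgcctgtgccg
Chromosome 17, position 48576819: gaagtggaaaaaAGACCacaagttgccca
SPTY2D1: gttagttctgcaAGACCcttgggcagctc
SLX9: agcgcagcccagAGACAgcagcttctgtg
ITPKC: tcattacccctgAGACCcctgagcctgag
RRP1B: acaccctggtacAGACCatagctcggggt
Chromosome 9, position 98080942: taactttggacaAGACCtggaaggggagt
GSTZ1: tacccggacgaaAGACAcgggcctgattc
NAB2: gggcagaggcacAGACAgaggcgcggagg
CEP170B: tggtgtcggctgAGACCaaggtggccgac
GNA13: tgtctcgggaaaAGACCtatgtgaagcgg

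Summed over all 361 loci without any count filter, the signal at the selected adenosine was modestly higher after incubation with the complex. It was 789.8 and 724.2 CPM (counts scaled to the library total) in the methylated libraries, against 575.3 and 545.8 CPM in the unmethylated ones. The groups did not overlap. The means were 757.0 ± 46.4 CPM and 560.5 ± 20.8 CPM (SD, n = 2 each), a ratio of 1.35. The exact two-sided permutation p over the 4 libraries was 0.33, the smallest that 2 against 2 libraries can give. Per 1000 counts of the same sequences, the selected adenosine took 8.98 (95% Wilson interval 8.81 to 9.15) and 8.23 (8.07 to 8.39) in the methylated libraries, against 6.22 (6.07 to 6.38) and 5.87 (5.73 to 6.01) in the unmethylated ones. An even spread over 141 positions would give 7.09 per 1000, and the summed signal lay below this without the enzyme and above it with the enzyme. Stops were not evenly spread, so this value is no background level. The mean of the unmethylated libraries was 316.9 CPM at +1 and 1331.9 CPM at −4 of the selected adenosine. Taken by themselves, AGACU loci stayed below the even share with the enzyme, at a mean of 6.53 per 1000. Reads of one origin are not independent molecules, so intervals and count limits here cover counting error only.

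The change was at the adenosine itself. Over the 10 nt on either side of it, the ratio of methylated to unmethylated CPM lay between 0.870 at −4 and 1.13 at −5. At the G directly upstream the signal was 385.0 and 420.4 CPM in the methylated libraries and 423.2 and 480.1 CPM in the unmethylated ones, a ratio of 0.892. At the C directly downstream it was 352.2 and 274.2 CPM in the methylated libraries and 345.9 and 287.9 CPM in the unmethylated ones, a ratio of 0.988. No flanking position in this range therefore had a ratio as high as the 1.35 of the selected adenosine.

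The signal was concentrated in few loci. The 10 loci with the most counts at the selected adenosine held 45.2% of them, and the brightest held 7.04%. At the other end, 80 loci had no count there in any library. Counts were present in methylated libraries alone in 47 loci and in unmethylated libraries alone in 17. The methylated libraries were deeper, and the matching shares over all sites were not computed, so no effect is read from these counts.

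Of the 361 loci, 28.3% had at least 10 counts at the selected adenosine in at least 2 of the 4 libraries and were tested, with the tag copies of a locus summed, and 259 were not. Among the tested loci 14 were higher in the methylated libraries and 1 was lower, by the quasi-likelihood test of edgeR at a threshold of 0.05, adjusted over all sites by the Benjamini-Hochberg method. This is 13.7% called higher, against 3.7% higher and 2.01% lower over all 142938 sites tested and 38.5% higher and 0.189% lower over the 3703 tested DRACH adenosines. The count was 8 in DESeq2, where RRP1B got no adjusted p, 6 without methylated replicate 1 and 4 without methylated replicate 2. Leaving out either methylated replicate left 86 loci to test, with 10 of the 14 rises among them. RRP1B, CNP, ITPKC and GLB1L3 reached 10 counts in the methylated libraries alone. Only their methylated signal brought them into the test, and the counts and shares of tested loci include them. The median log2 fold change of the tested loci was 0.34 (quartiles −0.03 and 0.96), against −0.01 over all sites tested and 1.20 over DRACH adenosines. The change was above 0 in 73 of the tested loci and below 0 in 29.

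Both methylated libraries lay above both unmethylated ones in 51 of the tested loci (50%) and below them in 14, against 26% and 21.8% of all tested sites, and the groups overlapped in 37. A log2 fold change above 1 was seen in 23 loci, 9 of which missed the threshold. The 259 loci that were not tested had median totals of 327 to 436 counts per library, against 4096 to 4988.5 in the tested ones. Their summed signal was 1.51 times as high with the enzyme, at 36.5 ± 0.984 CPM in the methylated libraries and 24.2 ± 0.530 CPM in the unmethylated ones (SD, n = 2 each). The tested loci held 95.4% of all counts at the selected adenosines.

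TRIM56 encodes a ubiquitin ligase of innate immunity, and its AGACA (chromosome 7, position 101087496) had 13.6 and 11.6 CPM in the methylated libraries, against 1.72 and 2.00 CPM in the unmethylated ones. The groups were far apart, with a log2 fold change of 2.72 ± 0.35 (SE; adjusted p = 1.32e-05). The sequence total averaged 8025.5 counts in methylated and 5403.5 in unmethylated libraries. Against it the log2 fold change was 2.41 (edgeR adjusted p = 8.95e-06). Of the 85 sites tested in this sequence, 5 were higher, the selected adenosine among them. All 3 tag copies were called higher by themselves. The copies had 66 and 74, 55 and 44, and 57 and 36 methylated counts, against 4 and 4, 11 and 17, and 3 and 3 unmethylated counts.

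The brightest called AGACC was at position 48576819 of chromosome 17, where HOXB3 and HOXB4, homeobox transcription factor genes, overlap. It had 52.2 and 54.4 CPM in the methylated libraries, against 7.44 and 10.7 CPM in the unmethylated ones. Its log2 fold change was 2.51 ± 0.29 (SE; adjusted p = 4.01e-06), and 2.68 when set against the total of the sequence, which was nearly equal in both groups (25685 counts on average in methylated and 24268 in unmethylated libraries). A single tag copy supplied 678 of 684 and 709 of 722 methylated counts. The other copies were too dim to be tested, with at most 9 counts in a library.

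SLX9 encodes a ribosome biogenesis factor, and its AGACA (chromosome 21, position 44973254) had 10.1 and 8.67 CPM in the methylated libraries, against 1.91 and 2.58 CPM in the unmethylated ones. The rise was 2.02 ± 0.35 on the log2 scale (SE; adjusted p = 5.70e-04), with 2 of 3 tag copies called by themselves. No other DRACH motif lay in this sequence. SPTY2D1 encodes a chromatin protein of the SPT2 family. Its AGACC (chromosome 11, position 18614903) had 5.03 and 6.56 CPM in the methylated libraries, against 1.05 and 1.41 CPM in the unmethylated ones, a log2 fold change of 2.18 ± 0.40 (SE; adjusted p = 0.00109). Without methylated replicate 2 it missed the threshold (adjusted p = 0.0526), although its log2 fold change was still 2.05.

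Rises at dim sites rested on few counts. RRP1B encodes a nucleolar protein of ribosomal RNA processing, and its AGACC (chromosome 21, position 43676749) had 30 and 16 counts in the methylated libraries and none in either unmethylated one. A floor of 3 counts per library gives 0.286 and 0.249 CPM in the unmethylated libraries. The methylated mean of 1.75 ± 0.765 CPM (SD, n = 2) was 6.52 times the mean of these floors (edgeR adjusted p = 5.61e-04). This ratio is not a lower bound for the adenosine, since methylated replicate 2 had only 1.21 CPM. The sequence total also averaged 1374 counts in methylated and 819 in unmethylated libraries. The call held against these totals (edgeR adjusted p = 0.00190). CNP encodes the cyclic nucleotide phosphodiesterase of myelin, and its AGACA (chromosome 17, position 41974449) had 15 and 38 counts in the methylated libraries and 0 and 6 in the unmethylated ones. Its call (adjusted p = 0.0235) ended in DESeq2 (0.563) and without unmethylated replicate 1 (adjusted p = 0.0821). ITPKC encodes an inositol trisphosphate kinase. Its AGACC (chromosome 19, position 40718141) had 35 and 21 methylated counts against 4 and 4 unmethylated ones, a log2 fold change of 2.52 ± 0.60 (SE; adjusted p = 0.0114), which missed the threshold in DESeq2 (0.0616).

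Both named AGACU rises were below those of the loci above. GLB1L3, a gene related to that of beta-galactosidase, had 37 and 23 counts at its AGACU (chromosome 11, position 134275851) in the methylated libraries, against 9 and 5 in the unmethylated ones. Its log2 fold change of 1.82 ± 0.55 (SE) lay just inside the threshold (adjusted p = 0.0486), and the call ended in DESeq2 (0.199) and without unmethylated replicate 2 (adjusted p = 0.199). NCOA5 encodes a coregulator of nuclear receptors, and its AGACU (chromosome 20, position 46063432) was the brightest called one with this motif. It had 4.50 and 3.92 CPM in the methylated libraries, against 1.14 and 1.66 CPM in the unmethylated ones, a log2 fold change of 1.54 ± 0.41 (SE; adjusted p = 0.0243). This call ended in DESeq2 (0.0965), against sequence totals (0.0782) and without any 1 of 3 libraries, namely methylated replicate 1 (0.187), methylated replicate 2 (0.121) and unmethylated replicate 1 (0.115), all as adjusted p.

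Some rises came with rises at neighbouring motifs of the same RNA. The AGACC at position 98080942 of chromosome 9, where NANS, the sialic acid synthase gene, and TRIM14, a gene of antiviral signalling, overlap, had 7.78 and 5.20 CPM in the methylated libraries, against 0.858 and 0.831 CPM in the unmethylated ones. Its log2 fold change was 2.90 ± 0.43 (SE; adjusted p = 9.10e-05). The adenosine of the GGACA that lies 5 nt upstream had 100 and 110 counts in the methylated libraries and none in the unmethylated ones, and 5 of the 17 sites tested within 10 nt were higher. The whole sequence went with them, with a mean total of 4853.5 counts in methylated and 2036.5 in unmethylated libraries. Against these totals the log2 fold change of the selected adenosine was 1.90 and remained called (adjusted p = 0.00602). The part of the neighbouring motif in this result was not tested.

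GSTZ1 encodes an enzyme of tyrosine breakdown, and its AGACA (chromosome 14, position 77321069) had 6.86 and 5.65 CPM in the methylated libraries, against 2.86 and 1.16 CPM in the unmethylated ones. The groups did not overlap, with a log2 fold change of 1.63 ± 0.40 (SE; adjusted p = 0.0135). The GGACG adenosine 7 nt upstream had 33.6 and 31.9 CPM in the methylated libraries and 5.82 and 6.15 CPM in the unmethylated ones, a log2 fold change of 2.42. The call of the selected adenosine ended without methylated replicate 1 (adjusted p = 0.116), methylated replicate 2 (0.0856) or unmethylated replicate 2 (0.111).

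The remaining 3 rises, in PELP1, CCDC57 and ZSWIM3, fall outside the rule for named loci and are listed after their values were seen. Their log2 fold changes were 1.46, 1.31 and 1.11, with adjusted p-values of 0.0424, 0.0141 and 0.0255 by edgeR. In CCDC57 the GGACA adenosine 25 nt downstream had 107.9 and 82.2 CPM in the methylated libraries, against 5.82 and 7.40 CPM in the unmethylated ones. The total of that sequence averaged 15084.5 counts in methylated and 6967.5 in unmethylated libraries, and against it the selected adenosine had a log2 fold change of 0.43 (adjusted p = 0.609). PELP1, ZSWIM3 and NCOA5 also lost their calls against sequence totals, with log2 fold changes of 1.41, 0.75 and 1.32. The call of PELP1 held in 3 of 10 alternatives. It was lost in DESeq2 (0.176), with no count minimum (0.0692) and without methylated replicate 1 (0.123), methylated replicate 2 (0.279), unmethylated replicate 1 (0.0676) or unmethylated replicate 2 (0.136), all as adjusted p. CCDC57 lost its call without methylated replicate 1 or 2 (adjusted p = 0.160 and 0.0766), and ZSWIM3 without methylated replicate 2 (adjusted p = 0.332).

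Set against sequence totals, 10 of the 14 rises were still called and 2 loci were added, which made 12 higher and 0 lower, against 1.8% of all sites higher and 0.404% lower. The 2 added loci were GNA13, which encodes a G protein alpha subunit, with a log2 fold change of 0.83 (adjusted p = 0.0286), and NUPR1, a stress-response gene, with 1.57 (adjusted p = 8.31e-04). NUPR1 was named after its value was seen. Across the tested loci, the log2 fold change of the selected adenosine correlated with that of the sequence total (Pearson's r = 0.456, Spearman's rho = 0.435; n is the 73 loci above 0 and the 29 below). Both measures come from the same 4 libraries, and the first is part of the second.

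The 1 fall followed its whole sequence. NAB2 encodes a corepressor of EGR transcription factors, and its AGACA (chromosome 12, position 57089116) had 3.74 and 3.24 CPM in the methylated libraries, against 11.7 and 13.8 CPM in the unmethylated ones. The log2 fold change was −1.90 ± 0.32 (SE; adjusted p = 4.03e-04). Of the 84 sites tested in this sequence, 62 were lower and 0 higher, and its total averaged 2854 counts in methylated and 8713 in unmethylated libraries. Per 1000 counts of its own sequence, the adenosine took 16.6 and 15.6 in the methylated libraries and 17.3 and 16.1 in the unmethylated ones. Against the totals the log2 fold change was −0.05 (adjusted p = 0.971), and without methylated replicate 2 the call of the fall also ended (adjusted p = 0.0555).

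Of the 10 loci with the most counts at the selected adenosine, 1 was called higher, that at position 48576819 of chromosome 17, against 3.7% of all tested sites. The ranking includes methylated counts, so a rise can itself bring a locus into it. CEP170B, a gene for a centrosome-associated protein, had 55.1 and 52.5 CPM at its AGACC in the methylated libraries, against 42.2 and 35.9 CPM in the unmethylated ones, a log2 fold change of 0.44 ± 0.26 (SE; adjusted p = 0.393). The AGACC of RPL7, a ribosomal protein gene, had 56.5 and 44.8 CPM in the methylated libraries, against 43.5 and 36.9 CPM in the unmethylated ones (log2 fold change 0.31, adjusted p = 0.596). The AGACC of GNA13 had 56.1 and 45.1 CPM in the methylated libraries, against 29.4 and 29.1 CPM in the unmethylated ones (0.77, adjusted p = 0.0985), and it was called with a minimum of 50 counts (0.79, adjusted p = 0.0462). Of the 3 tag copies of GNA13, 2 were called higher by themselves (edgeR adjusted p = 0.0294 and 0.0274). In CEP170B, RPL7 and GNA13 alike the methylated libraries lay above the unmethylated ones without passing the threshold in the main test.

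PLEC, the gene of the cytoskeletal linker plectin, gave 0.37 on the log2 scale (adjusted p = 0.495), with both methylated libraries above both unmethylated ones in CPM. Against sequence totals its log2 fold change was 0.78 (edgeR adjusted p = 0.0547). CEP72, which encodes a centrosomal protein, lay on the other side in CPM. Its AGACU had 23.95 and 17.49 CPM in the methylated libraries, against 26.7 and 32.3 CPM in the unmethylated ones (−0.54, adjusted p = 0.318). Against sequence totals the log2 fold change of CEP72 was −0.14 (edgeR adjusted p = 0.878). Per 1000 counts of its sequence the groups overlapped, at 25.4 and 21.6 in the methylated and 23.3 and 28.4 in the unmethylated libraries. The GGACC adenosine 27 nt upstream in the same CEP72 sequence had 15.6 and 15.5 CPM in the methylated libraries and 2.67 and 2.66 CPM in the unmethylated ones, a log2 fold change of 2.51. Near 0 lay DCAF5 (−0.02, with 10.7 and 9.20 CPM in the methylated and 6.01 and 13.6 CPM in the unmethylated libraries), GPR180 (0.25) and ARHGEF12 (0.22). These had adjusted p-values of 0.986, 0.707 and 0.757 by edgeR, with standard errors of 0.34, 0.28 and 0.28. In GPR180 both methylated libraries still lay above both unmethylated ones in CPM. Against sequence totals the log2 fold changes of DCAF5, GPR180 and ARHGEF12 were 0.37, 0.67 and 0.09, none of them called. A miss of the threshold does not show that these adenosines stayed unmethylated.

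By the last base of the motif, 4 of 25 tested AGACA loci were higher and 1 lower, 7 of 54 AGACC and 3 of 23 AGACU loci were higher, and the median log2 fold changes were 0.29, 0.43 and 0.22. The summed signal of AGACC was 484.0 and 453.1 CPM in the methylated libraries, against 309.2 and 300.9 CPM in the unmethylated ones, a ratio of 1.54. That of AGACA was 177.5 and 154.3 CPM against 147.7 and 135.8 CPM, a ratio of 1.17. That of AGACU was 128.4 and 116.8 CPM against 118.4 and 109.1 CPM, a ratio of 1.08, and here the groups overlapped (exact permutation p = 0.667). They did not overlap per 1000 counts of the same sequences, where AGACU took 6.76 and 6.30 in the methylated libraries and 6.07 and 5.69 in the unmethylated ones. Without its brightest locus, CEP72, the AGACU signal was 104.4 and 99.3 CPM in the methylated libraries and 91.7 and 76.8 CPM in the unmethylated ones, a ratio of 1.21, again without overlap (exact permutation p = 0.33 in both). For AGACA and AGACC the exact permutation p was 0.33.

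The order of the motifs changed with the weighting of the loci. AGACC minus AGACU was 0.51 in log2 ratio, AGACA minus AGACC −0.39 and AGACA minus AGACU 0.12, each with an exact permutation p of 0.33 (also 0.33 when adjusted over the 3 pairs). With the share of each locus total at the selected adenosine averaged over loci with at least 100 counts in every library, each locus weighted equally, AGACA had the highest ratio. It took 7.30 and 6.51 per 1000 in the methylated libraries, against 4.61 and 3.81 in the unmethylated ones, a ratio of 1.64 over 77 loci. The ratios of AGACC and AGACU were then 1.38 and 1.30, and AGACA minus AGACC turned to 0.25.

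The other bases around the motif were described without a test. With G at −3, 8 of 37 tested loci were higher (median log2 fold change 0.48), with A 5 of 31 (0.37), with C 1 of 32 (0.25) and with U 0 of 2. With U at +3 the median was 0.89 in 17 loci, of which 3 were higher, while A, C and G gave 0.28, 0.22 and 0.30 with 3 of 26, 4 of 25 and 4 of 34 higher. These groups are small and share the same libraries.

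The probability of being unpaired at the selected adenosine, from the partition function of the 141 nt, had a Pearson's r of 0.012 and a Spearman's rho of 0.039 with the log2 fold change over the same tested loci. Of the 34 tested loci with the lowest probability (up to 0.732), 7 were higher, and of the 34 with the highest (above 0.970), 4 were higher. Among called loci, TRIM56 had a predicted probability of 0.0624 and SPTY2D1 one of 0.997. The GC content of the whole sequence had an r of −0.184, that of the central 31 nt one of −0.140 and the number of other DRACH motifs one of −0.112, all over the tested loci.

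Other motifs in the same RNAs gave an internal comparison. Outside the selected position, 212 DRACH adenosines were tested in these sequences, and 74 of them (34.9%) were higher and 0 lower, with a median log2 fold change of 1.11. GGACH adenosines led, with 44 of 68 higher (64.7%) and a median of 2.29. AGACH adenosines outside the selected position gave 11 of 45 higher (24.4%) with a median of 0.64, UGACH 8 of 41 and GAACH 5 of 25. Of 2742 tested adenosines outside DRACN motifs, 56 were higher and 79 lower, with a median of −0.12. Sites in all these groups could enter the test through methylated counts alone, which can raise shares and medians and was not counted per group.

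In 36 sequences both the selected AGACH and at least 1 GGACH adenosine were tested. The median log2 fold change was 2.01 at GGACH, averaged within a sequence, and 0.40 at the selected adenosine, and GGACH had the larger value in 31 of the 36. A GGACH was called higher in 21 of them and the selected adenosine in 6. Entry into the test through methylated counts alone was possible for both here too. The sequence of ATP13A2, a gene for a lysosomal transporter, shows the contrast, and it was named after its values were seen. Its GGACC adenosine 23 nt upstream had 126.2 and 108.3 CPM in the methylated libraries, against 1.53 and 5.40 CPM in the unmethylated ones, while its selected AGACC had 8 and 20 counts against 31 and 20 (log2 fold change −1.14, adjusted p = 0.221).

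Tag copies served as repeat measurements within the same libraries. Of the 1083 oligonucleotides, 163 could be tested by themselves, of which 17 from 11 loci were higher and 2 lower, against 3.8% higher and 1.84% lower over all 194723 single sites. The count of higher oligonucleotides was 1 without methylated replicate 1, 2 without methylated replicate 2 and 7 with a minimum of 50 counts, which left 35 to test. The log2 fold changes of pairs of copies had Pearson's r of 0.566, 0.744 and 0.710 (Spearman's rho 0.530, 0.651 and 0.642) over 32, 38 and 33 loci. In 23 loci with all 3 copies tested, the change had the same sign in all copies in 16, and the median range over copies was 0.76 on the log2 scale. Of the 14 loci called higher, 12 were higher in the methylated mean in all 3 copies. The calls were made on the sum of these same copies, some of which held few counts, so this is not separate support.

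In 11 cases the same adenosine also lay in a second designed sequence, at another position. These were picked by coordinates alone, and none of the 11 was tested at the selected position, and in only 2 of them, those of DDX24 and CDCA2, could the second sequence be tested, with log2 fold changes of 0.33 and 0.44 (adjusted p = 0.858 and 0.721 by edgeR). The only locus with 10 or more counts in a library at the selected position, in ANKS1A, had 11 and 9 counts in the methylated libraries and 1 and 0 in the unmethylated ones. Its second sequence had 7 and 2 methylated counts against 2 and 1 unmethylated ones.

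The selected adenosine was called higher in 13.7% of tested cell-unmodified loci with A at −2 and G at −1, against 25% (27 loci) of tested cell-methylated loci with the same bases. It was called higher in 51.6% of 91 cell-unmodified loci with G at −2 and G at −1, in 33.3% of 45 with G at −2 and A at −1, and in 14.02% (15 loci, beside 1 lower) with U at −2 and G at −1. The median log2 fold changes of these 4 compared classes were 0.93, 1.52, 1.14 and 0.44, against 0.34. In every class a locus could enter the test through its methylated counts alone, which can raise the share called and the median. How many did so was not counted for the compared classes, so these shares and medians are not like for like. Within motifs, the cell-unmodified and the cell-methylated loci had medians of 0.29 and 1.13 for AGACA, 0.43 and 1.20 for AGACC, and 0.22 and 0.74 for AGACU.

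The test of each difference was made on the summed signal of a class in each library. Relative to cell-unmodified loci with G-G upstream, the log2 signal of the A-G loci was 0.17 and 0.13 in the methylated libraries, against 1.04 and 0.85 in the unmethylated ones, a difference of −0.79. Relative to G-A upstream it was 1.55 and 1.53 in the methylated libraries, against 1.92 and 2.09 in the unmethylated ones, a difference of −0.46. Relative to U-G upstream the difference was 0.10, with values of 0.16 and 0.22 in the methylated libraries and 0.15 and 0.02 in the unmethylated ones. For these 3 classes the exact permutation p was 0.33, the smallest possible, and 0.444 when adjusted over the 4 classes. For U-G it was 1 without the brightest locus of each class, with a difference of 0.02.

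Relative to cell-methylated loci with the same A-G, the log2 signal was 0.14 and 0.12 in the methylated libraries, against 0.31 and 0.01 in the unmethylated ones. These values differ by −0.04 between the groups (p = 1 by exact permutation), and leaving out unmethylated replicate 1 turns the sign (0.11). With loci weighted equally it was −0.19 (exact permutation p = 0.33), from ratios of 1.42 over 279 cell-unmodified loci and 1.61 over 206 cell-methylated loci. The summed signals thus did not separate these classes, although the medians and calls of the tested loci lay apart.

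A-G and G-G loci had close levels with the enzyme and differed without it. Per 1000 counts of the same sequences, the selected adenosine took 8.60 ± 0.531 in A-G loci and 8.86 ± 0.159 in G-G loci in the methylated libraries. In the unmethylated libraries it took 6.05 ± 0.246 in A-G loci and 3.56 ± 0.196 in G-G loci (SD, n = 2 each throughout). The methylated minus the unmethylated mean was therefore 2.56 per 1000 counts in A-G loci and 5.29 in G-G loci.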

How the data were processed

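The authors deposited raw counts of reverse transcription stops per nucleotide position, without normalization, for 11999 oligonucleotides in 4 libraries. Per the submitters' processing notes FastQC 0.11.8, STAR 2.7.3a and bedtools 2.27.1 were used. What each tool did, whether duplicates were removed, and the genome build: not given in the sources used here. Of the 361 loci 97.5% lay in a gene of the RefSeq table of GRCh38.p14, against 66.8% to 73.1% after shifts of 50000 or 500000 nt. The members and lists were chosen with earlier results of these data known.

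Counts of the 3 tag copies were summed per sequence. Sites that reached 10 counts in 2 or more libraries were tested in edgeR 4.0.16 (quasi-likelihood F test, TMM, group as the only term, R 4.3.3), with Benjamini-Hochberg adjustment over 142938 sites. Standard errors are the log2 fold change over the square root of F. The test was tested on simulated data. Summed signals were compared by two-sided exact permutation over libraries. Pairing used ViennaRNA 2.7.2, and DESeq2 1.42.0 was an alternative. Between replicates, oligonucleotide totals differed beyond sampling noise (a chi-square of 20.6 per degree of freedom in the methylated and 23.1 in the unmethylated pair). Replicate numbers were not taken to pair the libraries.

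Named loci were taken among called loci without overlap of the groups (the 8 largest rises with counts in every unmethylated library, up to 3 without, up to 3 falls and the brightest per motif), and among uncalled loci (the 5 brightest, and per motif that nearest 0 with 50 counts in every library). No sequence from chromosome 8 is shown.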

Additional observations from a re-analysis of the deposited data

How the results depend on the processing

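The 14 rises and 1 fall kept their direction under every alternative that could test them: DESeq2, scaling by library totals or on sites outside DRACN, sequence totals, a minimum of 50 counts, no minimum, the replicate block and leaving out each library. DESeq2 called 8 loci higher. Against sequence totals 0 were lower, and the fall, in NAB2, had a log2 fold change of −0.05. Of the 14 rises, 9 could be tested with a minimum of 50 counts and 10 without either methylated library. With a minimum of 50 counts 7 oligonucleotides were higher. Leaving out 1 library in turn gave 4 to 15 loci higher and 0 to 2 lower, and 1 to 18 oligonucleotides higher and 0 to 4 lower; the lowest counts came without a methylated library. The pooled log2 ratio of all loci then lay between 0.37 and 0.50. Its difference to the cell-methylated loci with the same bases lay between −0.18 and 0.11, with the sign turned without unmethylated replicate 1.

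With the replicate number as a block, 15 loci and 22 oligonucleotides were higher, and no named locus lost its call. Deviations of same-numbered libraries correlated at −0.084, so the numbers were not taken to pair them. DCAF5, at −0.02, changed sign with library totals (0.016), sequence totals (0.37), 50 counts (0.010), the block (0.078), and without methylated replicate 2 (0.15) or unmethylated replicate 2 (0.73), and leaving out 1 library in turn gave −0.51 to 0.73. ARHGEF12 had −0.035 without methylated replicate 1. None of these values was called, and the cause was not tested. Depth limits the rest: 259 of 361 loci had too few counts to be tested.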
